A study of Mus musculus with 2 samples.

Results

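Large intergenic noncoding RNAs are transcripts from the stretches of the genome between annotated protein-coding genes. The arrays carried 4460 probes of a design class for such loci (probe names beginning A_30_P), and the 4193 of them that the scanner files place on an autosome of the mouse build mm9 are described here, out of 56605 probes in all. A further 176 probes lay on chromosome X, none on chromosome Y, and 91 had no place in the files. The study hybridised 2 one-colour Agilent arrays, 1 with RNA from a neurosphere sample and 1 with RNA from the VZ/SVZ, the ventricular and subventricular zone that line the brain's lateral ventricles. Both samples came from the brain of C57BL/6 mice aged 6 months, were heterozygous for Ecrg4 and were labelled beta-gal positive, so both arrays share the Ecrg4 allele and the reporter. The growth protocol in the labels places both kinds of cell in DMEM/F12 with bFGF, EGF and heparin, and how long, if at all, the VZ/SVZ cells were in culture is not stated in the labels. There was 1 array per group. No test of a difference between the conditions was possible, and a fixed size of 2-fold is used throughout, read against the share of all autosomal probes past that size.

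Many long intergenic loci were first found as stretches of chromatin carrying the histone marks of active transcription outside known genes, and the members are named for such intervals. Some of their transcripts act in the nucleus as scaffolds for chromatin complexes or for nuclear bodies, others lie beside developmental transcription factor genes, and for many no function is known. In the adult ventricular and subventricular zone, neural stem cells persist beside ependymal cells, neuroblasts and blood vessels, and neurospheres are the free-floating clusters such stem cells form in culture.

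The members came from 3089 named intervals, with a median length of 7304 bases and a range of 62 to 538251 bases, and 8 further members carried the name of a known RNA in place of an interval. A single probe stood for 2166 intervals, and 923 intervals had 2 or more, up to 5. The probes are 60 bases long, 2127 on the plus and 2066 on the minus strand. For several intervals the design holds a probe for each strand, and members of 1 interval share a target and are not replicates. Exon or intron status is not given, since no annotation of build mm9 was used here.

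The sequences of the 6 members that the results below turn on most are printed first, in the sense of the strand named, from the deposited Sequence column. None of them holds the polyadenylation signal AATAAA, so all letters are in lower case. The first 3 were higher in VZ/SVZ and the others higher in the neurosphere, and the last lies in the interval around Halr1.
chr5:14944100-14944159 (plus strand): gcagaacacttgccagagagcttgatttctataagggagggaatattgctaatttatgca
chr8:26214583-26214642 (plus strand): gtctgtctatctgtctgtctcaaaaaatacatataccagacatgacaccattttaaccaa
chr19:5834543-5834602 (minus strand): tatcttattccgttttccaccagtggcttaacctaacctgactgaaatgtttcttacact
chr9:95300199-95300258 (plus strand): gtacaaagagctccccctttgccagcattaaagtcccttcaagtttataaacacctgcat
chr1:42770029-42770088 (plus strand): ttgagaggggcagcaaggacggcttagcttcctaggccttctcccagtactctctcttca
chr6:52063900-52063959 (plus strand): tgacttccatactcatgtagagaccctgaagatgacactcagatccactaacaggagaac

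A second set shows how probes for the 2 strands of an interval can read the same bases. Capitals mark the run in each plus-strand probe whose reverse complement is in the minus-strand probe beside it, 33 bases in the first pair and 34 in the other pairs.
chr11:16835701-16835760 (plus strand): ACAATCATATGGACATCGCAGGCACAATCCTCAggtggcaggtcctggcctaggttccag
chr11:16835674-16835733 (minus strand): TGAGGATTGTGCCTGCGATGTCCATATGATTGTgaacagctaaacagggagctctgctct
chr5:35976912-35976971 (plus strand): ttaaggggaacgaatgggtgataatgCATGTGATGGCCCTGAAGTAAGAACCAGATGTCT
chr5:35976938-35976997 (minus strand): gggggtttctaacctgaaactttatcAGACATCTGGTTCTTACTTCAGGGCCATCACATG
chr9:121851028-121851087 (plus strand): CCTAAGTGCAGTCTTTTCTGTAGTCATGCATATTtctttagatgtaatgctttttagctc
chr9:121851002-121851061 (minus strand): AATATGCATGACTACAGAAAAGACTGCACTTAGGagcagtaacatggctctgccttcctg

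The letters of the members differed from those of the other autosomal probes. Their median GC content was 45% against 41.7%. AATAAA stood in 173 members, or 4.13%, against 10.3% of the other autosomal probes and 12.2% of probes for RefSeq lncRNA genes. Its reverse complement TTTATT stood in 117 members, or 2.79%. Among probes of RefSeq protein-coding genes the same shares were 10.5% and 3.95%, and 72 such probes matched the start window of their own gene in the gene's sense against 4 in the opposite sense, so the Sequence column is written in the sense of the transcript. An exact match of all 60 bases to a RefSeq start window (300 bases, build GRCm38.p6) was found for 46 members and 45 genes, 24 matches in the gene's sense and 24 against it. No member lay within a RefSeq miRNA hairpin.

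The 2 arrays were alike in scale. Each held 62976 spots, and the 75th percentile of the processed signal over probes stood at 99.4 (neurosphere) and 106 (VZ/SVZ). Levels below are Agilent's processed signal in arbitrary units. Distances from a member to a gene are between the centres of the member and of a probe of that gene. The gene itself can therefore lie nearer than the distance given. A difference is the log2 of the VZ/SVZ signal over the neurosphere signal after each array was divided by its 75th percentile, and the error after ± is the scanner's own error of that difference, which holds no spread between animals or cultures. Among markers of other cells, all 7 fibroblast markers were 2-fold or more higher in VZ/SVZ, with summed signals of 43.9 (neurosphere) and 11481 (VZ/SVZ), and of these genes Col1a2 alone was well above background in the neurosphere. Of 7 endothelial markers 6 were higher in VZ/SVZ, with summed signals of 37.2 and 1097. Of 7 measured ependymal markers 5 were higher in the neurosphere, and of 15 neural progenitor markers 6 were higher in the neurosphere but 1 in VZ/SVZ. Of 6 measured neuron and neuroblast markers 3 were called for VZ/SVZ and 0 for the neurosphere, namely Gad2 (3.09), Tubb3 (1.90) and Syt1 (a bound of 1.16), while Rbfox3 and Slc17a7 did not pass the background mark. Of 8 microglial markers none was 2-fold higher on either side, and Cx3cr1, P2ry12, C1qa and Tyrobp did not pass the well-above-background mark on any array. The part of these cell types in the differences below was not tested, and in bulk RNA more cells of a type and more RNA per cell cannot be told apart.

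Most intergenic members gave signal. Of the 4193 members, 2599 or 62.0% passed the well-above-background mark in the neurosphere and 2858 or 68.2% in VZ/SVZ. The other autosomal probes stood at 61.4% and 66.4%, and probes of RefSeq lncRNA genes at 34.7% and 40.1%. Of the members, 2411 were well above background on both arrays, 447 in VZ/SVZ alone, 188 in the neurosphere alone and 1147 on neither. The shares were higher in longer intervals, from 50.2% (neurosphere) and 57.2% (VZ/SVZ) of members in intervals under 2 kb to 69.4% and 73.5% in those of 30 kb or more.

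More intergenic members were higher in VZ/SVZ than in the neurosphere. Of the 3046 members well above background on at least 1 array, 691, or 22.7%, were 2-fold or more higher in VZ/SVZ, where 18.3% of all autosomal probes passed that size. Toward the neurosphere 240 members, or 7.88%, were 2-fold or more higher, where 11.8% of all autosomal probes were. The remaining 2115 differed by less than 2-fold. Probes of RefSeq lncRNA genes had a like split, with 24.0% called for VZ/SVZ and 7.42% for the neurosphere. Of their calls 76.4% were for VZ/SVZ, so the lean is not particular to the intergenic members. In intervals under 2 kb 26.2% of the measured members were called for VZ/SVZ and 6.56% for the neurosphere, and in those of 30 kb or more 20.8% and 8.70%. Members called for VZ/SVZ thus made up 74.2% of all members called, against 59.6% for the other probes, and this share was 66.8% with normexp background correction and 57.2% with quantile normalization (51.0% and 46.3% for the other probes). With normexp, however, 123 and 61 members were called, and the 4.04% of members higher in VZ/SVZ lay below the 4.65% of the other probes. Of the calls, 238 for VZ/SVZ and 61 for the neurosphere are bounds, because the member was not well above background on the other array. The members nearest the limit had differences of 1.004 inside and 0.999 outside it on the VZ/SVZ side.

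Larger differences lay mostly on the VZ/SVZ side, in the members as on the whole array. At 4-fold or more 188 members (6.17% of those measured) favoured VZ/SVZ, where 6.16% of all autosomal probes did, and 49 (1.61%) favoured the neurosphere, where 2.53% did. At 8-fold or more 61 members (2.003%) favoured VZ/SVZ against 2.52% of all autosomal probes, and 7 (0.23%) the neurosphere against 0.639%. The members' higher share on the VZ/SVZ side was thus seen at 2-fold, was at the background at 4-fold and lay below it at 8-fold. Among the 2411 members well above background on both arrays the median difference was 0.19, with quartiles of -0.33 and 0.80 and a range of -4.25 to 4.44. The median scanner error of a single difference was 0.22. The median was -0.09 for the other probes, -0.13 for probes of protein-coding genes and 0.29 for probes of RefSeq lncRNA genes. Quantile normalization moved the members' median to -0.017 and that of the other probes to -0.18, and normexp moved the members' median to 0.030, so the sign of the members' median depended on the scaling while it stayed above that of the other probes.

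**Figure D1:**
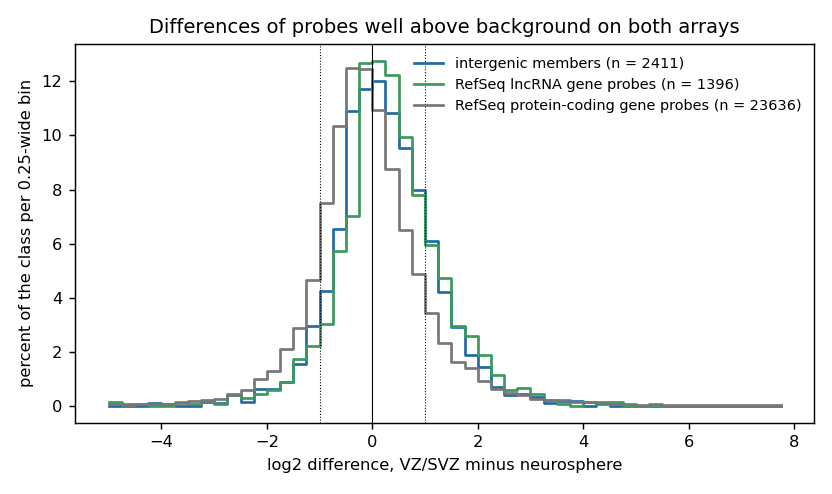
Distribution of the log2 difference (VZ/SVZ minus neurosphere, x axis) as a percent of each class per bin (y axis), for probes well above background on both arrays; dotted lines mark 2-fold. The 2411 intergenic members (median 0.19) lie near the lncRNA gene probes (median 0.29) and to the right of the protein-coding gene probes (median -0.13).

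The shift was not the same at all signal strengths. When probes were split into 5 equal bins by mean level, from dimmest to brightest, the members' median differences were 0.18, 0.43, 0.24, 0.13 and -0.27, and those of the other probes 0.17, 0.11, -0.08, -0.22 and -0.38. In the dimmest bin, which held 708 members, the members and the other probes had nearly the same median, and the gap was widest in the middle bins. All 19 autosomes had more members called for VZ/SVZ than for the neurosphere, and the other probes did too on all 19. Chromosome 6 came closest to even, with 37 and 28, and chromosome 19 was the most one-sided by ratio, with 19 and 2.

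Among members well above background on both arrays, the 10 intervals with the largest differences toward VZ/SVZ, each by its leading member, ranged from 3.37 to 4.44 on the log2 scale. The member at chr5:14944100-14944159, in the interval chr5:14943275-14944205, had signals of 5.92 in the neurosphere and 137 in VZ/SVZ, a difference of 4.44 ± 0.33 or 21.6-fold. The plus-strand member of chr8:26212577-26218527 had 571 and 11771, a difference of 4.27 ± 0.20. It was bright on both arrays, so its value changed little with normexp and its offset (4.16), while that of the dim chr5 member fell to 1.66. The minus-strand probe of the same chr8 interval went the other way, from 12.8 in the neurosphere to 2.66 in VZ/SVZ, where it was not well above background.

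The member of chr4:86267450-86277650, near the augmin subunit gene Haus6, had signals of 54.9 and 903 (3.95 ± 0.21), while the probe of Haus6 itself was lower in VZ/SVZ (-1.28). In chr14:62280837-62283960 the signals were 7.65 and 105 (3.68 ± 0.31), 33.7 kb from Dleu2, a long noncoding RNA that hosts microRNAs, whose difference was 1.38. Both strand probes of chr5:35975265-35982561, whose sequences are given above, were high in VZ/SVZ. Their signals were 241 and 2709 on the plus strand (3.40 ± 0.20) and 1243 and 16805 on the minus strand (3.66 ± 0.20). The nearest measured gene probe, 17.8 kb away, was of Htra3, a secreted serine protease gene, and differed by -1.64, in the opposite direction.

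The neurosphere side held fewer large differences, from -2.70 to -4.25 for the leading members of its first 10 intervals. In chr11:16831925-16851121 the minus-strand probe had 814 in the neurosphere and 45.7 in VZ/SVZ (-4.25 ± 0.21), and the plus-strand probe 1641 and 98.0 (-4.16 ± 0.20). The member of chr9:95295459-95301266 had 4287 and 334 (-3.77 ± 0.20) and lay 4.73 kb from the sulfotransferase gene Chst2, whose own difference was -2.61. In chr9:121845920-121858120 both strand probes were higher in the neurosphere, by -3.17 ± 0.23 on the plus strand (148 and 17.5) and -2.52 ± 0.22 on the minus strand (147 and 27.4). The interval chr7:128341797-128414692 had -2.995 ± 0.21 on the plus strand (575 and 77.0) and -2.91 ± 0.20 on the minus strand (4777 and 677). In all of these the neurosphere array gave the higher signal on both strands, where both were probed.

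The remaining neurosphere intervals included chr2:119697845-119719245 with 1159 and 142 (-3.13 ± 0.20), 60.3 kb from the receptor tyrosine kinase gene Tyro3, and chr6:36790208-36792056 with 62.8 and 10.2 (-2.72 ± 0.28), 6.74 kb from the diacylglycerol kinase gene Dgki, which differed by -1.11. Of the 20 leading members, 18 stayed 2-fold or more with normexp, where their sizes ran from 0.82 to 4.16, and all 20 did with quantile normalization. The 2 that did not were chr6:36790208-36792056 (-0.82) and chr10:33709588-33712046 (-0.83).

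**Figure D2:**
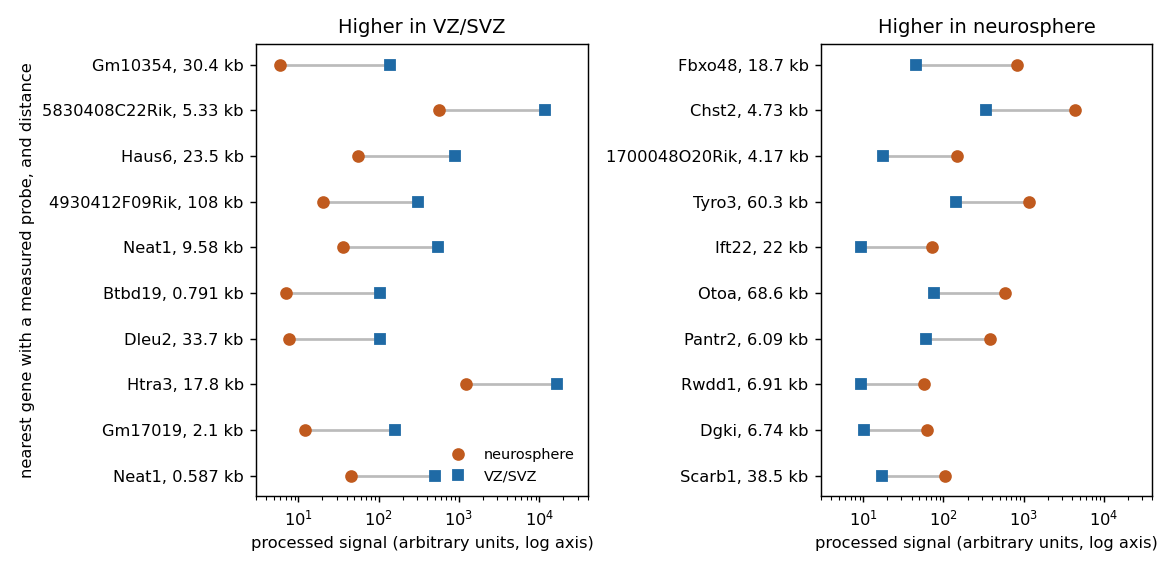
Processed signal (x axis, arbitrary units, log axis) of the 10 members with the largest difference toward VZ/SVZ (left) and toward the neurosphere (right), each named on the y axis by its nearest measured gene and the distance. Circles are the neurosphere array and squares the VZ/SVZ array, 1 array each with no replicate spread; bright members such as that near Htra3 (1243 and 16805) and dim ones such as that near Gm10354 (5.92 and 137) both occur.

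Some members were well above background on 1 array alone, and their differences are bounds. Against the lower limit of detection on the neurosphere array, the plus-strand member of chr1:63163023-63180223 exceeded its neurosphere level at least 37.7-fold (1.60 and 209), and its minus-strand partner also stood higher there (8.08 and 19.2, 1.15 ± 0.32). The member of chr2:36112819-36114110 (1.104 and 118) was at least 21.3-fold higher, 5.45 kb from the cyclooxygenase gene Ptgs1, which was itself not well above background in the neurosphere and at least 4.56 higher in VZ/SVZ on the log2 scale. On the neurosphere side the largest bound was smaller. The member of chr2:108456668-108532418 (70.1 and 1.99) exceeded its VZ/SVZ level at least 12.6-fold, and that of chr8:59994074-60002058 (28.5 and 1.22) at least 5.13-fold, 1.51 kb from Hmgb2, a chromatin protein gene of dividing cells that differed by -2.36.

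The members that carry the name of a known RNA went in different directions. NEAT1, the scaffold RNA of the nuclear paraspeckles, had 152 in the neurosphere and 824 in VZ/SVZ (2.35 ± 0.20). H19, an imprinted maternally expressed RNA, had 1.26 and 41.1, a rise of at least 7.42-fold toward VZ/SVZ, and the array's own gene probe of H19 was at least 4.43 higher on the log2 scale. The member named lincP21, for a p53-induced RNA, had 41.8 and 13.2 (-1.75 ± 0.25). KCNQ1ot1, an antisense RNA that silences an imprinted cluster, had 637 and 731 (0.10 ± 0.20), and TUG1 had 651 and 586 (-0.25 ± 0.20). NRON had 51.6 and 52.1 (-0.08 ± 0.21) and PINC 7.03 and 7.23 (-0.06 ± 0.40). HOTAIR, a transcript of the HOXC cluster, did not pass the background mark on any array (1.103 and 1.27).

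Called members lay together in places. When measured members were chained at gaps under 50 kb, leaving out the chromosomes on which no member is named, 14 runs held 4 or more members called in 1 direction and none in the other, 12 toward VZ/SVZ and 2 toward the neurosphere. The rule for these runs was chosen after the values were seen, and intervals within a run overlap in part, so their members are not independent. No such count was made for the other autosomal probes, so the runs are not read as a trait of the members. Of all measured members 22.7% were called for VZ/SVZ and 7.88% for the neurosphere, and the split of the runs is not adjusted for that. With normexp 2 such runs were found in all, with quantile normalization 8, and with gaps under 20 kb 9.

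The run around Neat1, chr19:5797234-5845350, held 7 measured members of which 6 were called for VZ/SVZ. Its differences ran from 0.61 to 3.83, and 6 of its members were called also with normexp and with quantile normalization. The member at chr19:5834543-5834602, printed above, had 36.04 and 548 (3.83 ± 0.21) and lay 9.58 kb from the nearest Neat1 gene probe. The interval chr19:5771425-5848475 had 2 plus-strand probes with 45.3 and 501 (3.37 ± 0.21) and 373 and 1570 (1.98 ± 0.20), on the strand opposite to the NEAT1 member. The 2 members farthest from Neat1 moved least, with 6174 and 10088 (0.61 ± 0.20) and 909 and 2214 (1.19 ± 0.20).

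The run around Rian, chr12:110848958-110913679, held 9 members of 6 intervals, 7 of them called for VZ/SVZ. Rian is a maternally expressed noncoding RNA of the imprinted Dlk1-Dio3 domain. In chr12:110842154-110883594 the 2 members had 9.81 and 84.8 (3.02 ± 0.26) and 1.04 and 64.5, at least 11.6-fold higher. Most of these members were dim in the neurosphere, and with normexp 2 of the 9 stayed 2-fold. The 2 nearest Rian probes of the array differed by 2.78 and 2.29.

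In the run named for Lncpint, a p53-responsive long noncoding RNA, 6 of 8 members were called. The leading member, of chr6:31001656-31002219, had 20.4 and 311 (3.83 ± 0.22). Its nearest measured gene was 4930412F09Rik, 108 kb away. The plus-strand member of chr6:31017987-31174287, the closest to a Lncpint probe at 22.9 kb, had 922 and 643 (-0.61). Near Mir9-3hg, a host gene of the brain microRNA miR-9, all 4 members were called, 3 of them as bounds (chr7:86662963-86663649 had 3.96 and 66.3). With normexp 1 of the Lncpint members and 0 of the Mir9-3hg members stayed 2-fold, and with quantile normalization 5 and 2 did. On chr5:14938015-15033821, near Gm10354, all 6 were called, with differences from 1.70 to 4.44. Near Ifi204, a gene of the interferon-inducible p200 family, 6 of 8 members were called and none of them reached 2-fold with normexp.

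Toward the neurosphere there were 2 runs. The interval chr6:52046805-52072744 around Halr1, a noncoding RNA beside the Hoxa cluster, had 4 members and all favoured the neurosphere. Their signals were 64.4 and 18.7 (-1.87 ± 0.23), 63.2 and 23.1 (-1.55 ± 0.23), 24.8 and 3.82 (a bound of -2.16), and 116 and 29.9 (-2.05 ± 0.21). The nearest protein-coding gene measured was Hoxa3, a homeobox gene that differed by -5.01, and the Halr1 gene probe had a bound of -1.09. With normexp 1 of the 4 stayed 2-fold. In the second, near Gm8213, 4 of 6 members were called. The 3 probes of chr6:116123643-116124550 gave 17364 and 6354, 4500 and 1701, and 2150 and 759, with differences of -1.54, -1.50 and -1.60, and an overlapping minus-strand member gave 13606 and 4570 (-1.67). These 4 stayed called with normexp and with quantile normalization, while the 2 members not called leaned the other way, with 7.28 and 12.2 (0.65) and 10074 and 11612 (0.11). Whether the 4 called probes also read RNA of like sequence from another locus was not tested.

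**Figure D3:**
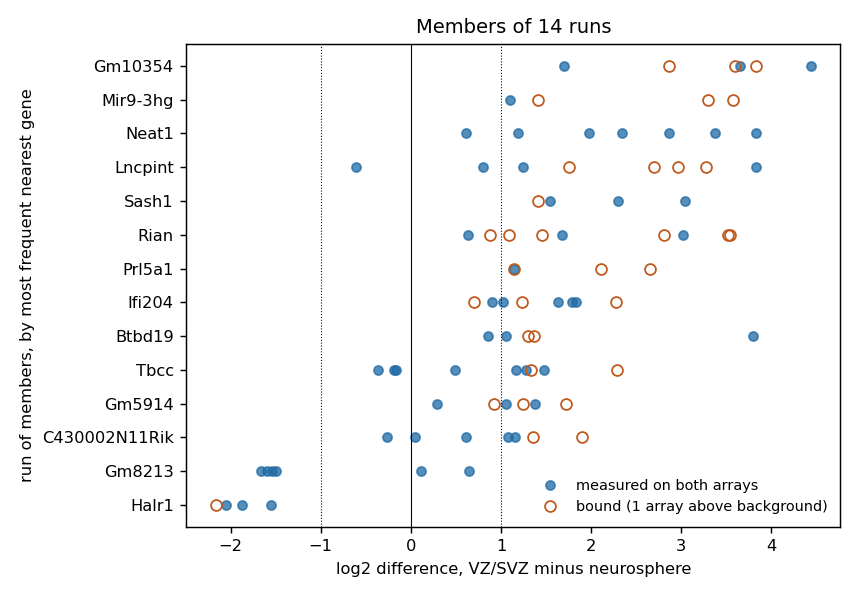
Log2 difference (x axis) of each member in the 14 runs, named on the y axis by their most frequent nearest gene; filled points are measured on both arrays, open points are bounds, and dotted lines mark 2-fold. The runs near Gm10354 and Neat1 reach 4.44 and 3.83, and those near Halr1 and Gm8213 are the only ones called for the neurosphere.

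In 801 intervals both strands were probed. Both strands were well above background in 405, or 50.6%, for the neurosphere and in 480, or 59.9%, for VZ/SVZ. Exactly 1 strand was in 290 and 239, and neither in 106 and 82. In 173 intervals a single strand was bright and it was the same on both arrays, and in 3 the bright strand switched. The switches rested on signals near background, such as 4.03 and 7.11 on the minus strand of chr17:8088950-8106700 against 6.79 and 3.26 on its plus strand.

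Where both strands of an interval were well above background on both arrays, their differences went together more often than not. Over 370 such intervals, 258 had the same sign on both strands, 19 were called for VZ/SVZ on both strands, 16 for the neurosphere on both, and 3 in opposite directions, of 159 with a call on either strand. Across these intervals r was 0.51 and rho 0.42, given as a description, since both values come from the same pair of arrays. The likeness depended on whether the nearest strand probes read the same bases. In 97 intervals whose strand probes overlapped, as in the second set of sequences above, r was 0.81 and the median gap between strands 0.37. In 258 intervals whose strand probes lay apart, by a median of 1466 bases over all 593 such intervals, r was 0.37 and the median gap 0.65. Over all 208 overlapping pairs the median complementary run was 42 bases.

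**Figure D4:**
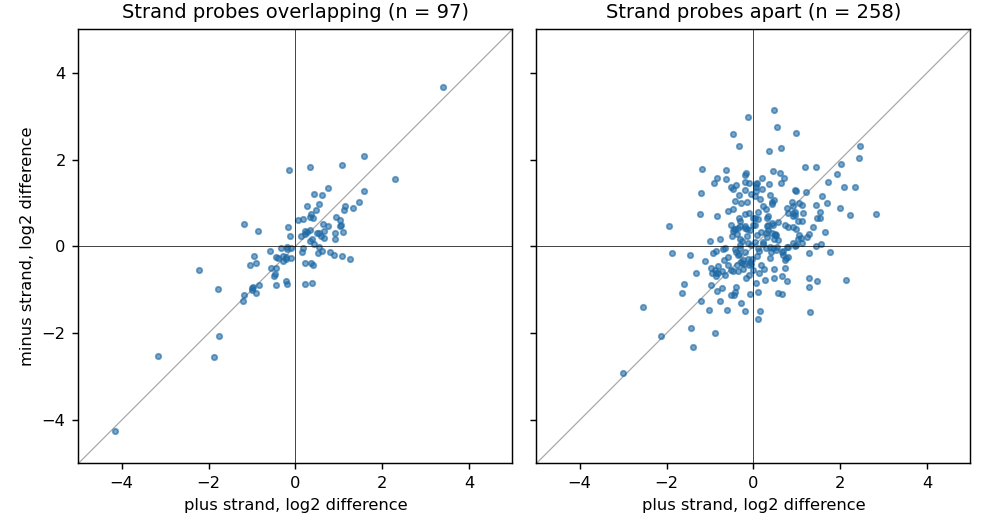
Log2 difference of the plus-strand probe (x axis) against that of the minus-strand probe (y axis) in each interval, for the nearest strand probes where both were well above background on both arrays; the grey line marks equal values. The 97 overlapping pairs (left) lie closer to the line (r 0.81) than the 258 pairs apart (right, r 0.37).

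The 3 intervals with opposite calls all had probes that lay apart. In chr8:113968152-113973727, near the GATOR2 component gene Wdr59, the minus strand had 10.2 and 37.4 (1.78 ± 0.28) and the plus strand 32.3 and 15.2 (-1.18 ± 0.24). In chr7:3338500-3360725, beside the calcium channel gamma subunit gene Cacng7, the plus strand had 99.1 and 261 (1.30 ± 0.20) and the minus strand 475 and 177 (-1.52 ± 0.20), near the -1.20 of Cacng7. In chr17:3103174-3114885 the minus strand had 193 and 484 (1.23 ± 0.20) and the plus strand 212 and 98.2 (-1.21 ± 0.21).

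Probes of 1 interval on the same strand differed among themselves by a median of 0.52. Of 116 interval strands with 2 or more probes well above background on both arrays, 78 had the same sign for all of them, and 44 held a call. In 6 all probes were called for VZ/SVZ and in 5 for the neurosphere, and in 1 they were called in opposite directions. Both probes of chr1:162965309-162970704, on opposite strands at Gas5, a noncoding host gene of small nucleolar RNAs, were higher in VZ/SVZ, with 190 and 828 (2.02 ± 0.20) and 13.7 and 78.4 (2.43 ± 0.24), while the array's own Gas5 probe nearest to them differed by 0.12.

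In other intervals every probe well above background on both arrays went past 2-fold in 1 direction. The 3 probes of chr10:8606683-8665783 had 11.0 and 57.4 (2.29 ± 0.27), 19.0 and 167 (3.04 ± 0.22) and, on the minus strand, 59.98 and 187 (1.55 ± 0.21). The nearest measured gene probe, 128 kb away, was of the scaffold protein gene Sash1 and differed by 2.54. How near the gene itself lies was not read. In chr13:54399275-54445825 the 3 probes differed by 1.09, 1.59 and 1.16, whereas Cplx2, the synaptic protein complexin gene beside it, had a bound of -1.12. A member that matches the start window of Cplx2 in the gene's sense had 21.6 and 4.47 (a bound of -1.96), so this member and the interval next to it stood on opposite sides. The 4 probes of chr6:11996975-12037300 were alike toward the neurosphere, from -1.11 to -1.26, and both strands of chr8:60132300-60146830 were alike toward VZ/SVZ (2.31 and 2.46).

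Among the other members that match a RefSeq start window, 1 for Osbpl3, an oxysterol-binding protein gene, in the gene's sense had 340.0 and 969 (1.42). The member that matches Lockd, a noncoding RNA downstream of Cdkn1b, had 66.6 and 34.6 (-1.04). A member that matches Gas5 in its own sense had 38.2 and 49.5 (0.28), near the value of the Gas5 probe. Against the gene's sense, the member at Dpy19l1 had 17.99 and 8.36 (-1.20) and that at AI839979 had 403 and 1248 (1.54).

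Some members shared 25 or more bases in a row with a probe of another class. For 18 members the shared run was in the same sense, and for 42 it was the reverse complement, so that by design the member is for the strand opposite to the gene probe. Whether the labelled material held 1 strand alone was not tested, so plus and minus name the strand of a probe's design and not a measured strand of transcription. The differences followed the gene probe in both cases. Over 12 same-sense pairs well above background on both arrays r was 0.93 and the median gap 0.17, and over 36 reverse-complement pairs r was 0.95 and the median gap 0.12. In the reverse-complement pairs the member of chr4:40720362-40729687 differed by -1.03 and Psenen, a gamma-secretase subunit gene, by -1.10. The member of chr6:128418399-128429399 differed by -0.92 and Ppih, a cyclophilin gene of the spliceosome, by -1.03, and the member of chr16:94521875-94545750 by -0.87 and Cbx1, a heterochromatin protein gene, by -0.95. Members of different intervals that shared 25 bases with each other were less alike. Over 30 such same-strand pairs r was 0.69, with a median gap of 0.19, and over 12 reverse-complement pairs r was 0.87, with a median gap of 0.33. The neurosphere member of chr5:137395007-137412976 (-3.05) shared bases in the same sense with a member that differed by 0.21. Without the 60 members that share bases with another class, 685 and 232 members were called.

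The differences of the members followed those of the nearest gene probe only at short distance. Within 1 kb, over 191 pairs, r was 0.63 and rho 0.55, and of 42 pairs with both probes 2-fold or more 37 went the same way. From 1 to 10 kb, over 770 pairs, r was 0.34. From 10 to 50 kb, over 1221 pairs, it was 0.05, from 50 to 200 kb 0.06, and beyond 200 kb, over 155 pairs, 0.19. For a gene probe and the nearest probe of another gene, r was 0.25 within 1 kb and 0.15 from 1 to 10 kb. Within 1 kb the members' r was 0.53 over 76 pairs on the same strand and 0.70 over 115 pairs on opposite strands. For pairs of genes within 1 kb it was 0.55 over 108 pairs on the same strand and 0.22 over 1633 pairs on opposite strands. Within 1 kb the members' r thus exceeded that of gene pairs on opposite strands but not on the same strand. The pairs share both arrays, and neighbouring members share a gene, so these values describe the arrays and carry no test.

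**Figure D5:**
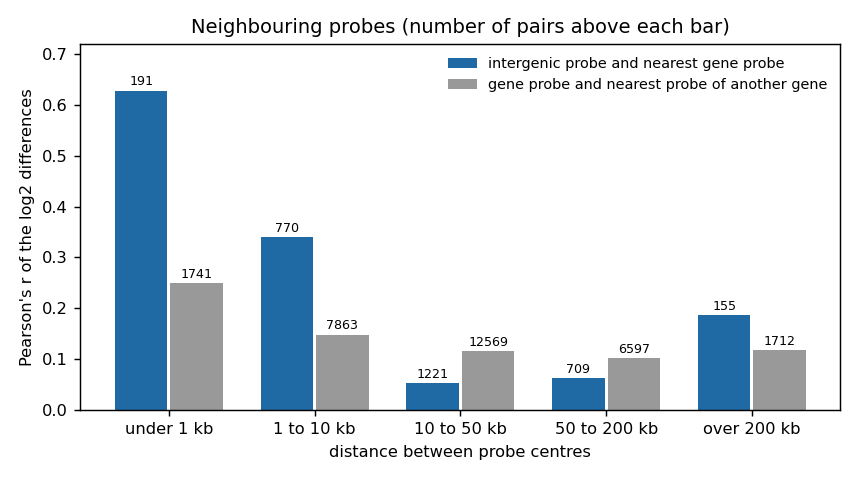
Pearson's r (y axis) between the log2 difference of a probe and that of its nearest gene probe, by distance between probe centres (x axis), for intergenic members (blue) and for gene probes against the nearest probe of another gene (grey), with the number of pairs above each bar. The members' r falls from 0.63 within 1 kb to 0.05 at 10 to 50 kb.

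Of 228 developmental transcription factor genes of the list on the array's autosomes, 55 had a member within 100 kb, 136 members in all. Of 101 measured, 19, or 18.8%, were called for VZ/SVZ and 10, or 9.90%, for the neurosphere, close to the 18.3% and 11.8% of all autosomal probes. In 14 cases the member and its transcription factor gene both differed by 2-fold or more, and in 12 of them in the same direction. Over 52 pairs well above background on both arrays r was 0.16. The list was therefore near the background as a whole, and single loci stood out by size.

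At Pou3f3, a POU homeobox gene of the developing cortex, 3 members lay within 100 kb, and 2 of them were called in opposite directions. The member of chr1:42759171-42771337 had 378 in the neurosphere and 60.4 in VZ/SVZ (-2.74 ± 0.21), where the noncoding neighbour Pantr2 differed by -3.15 and Pou3f3 by -2.20. The member of chr1:42689799-42749799 differed by 1.66. Near Sall1, a zinc finger gene, 1 of 5 members of chr8:91569369-91594119 was called, with 87.4 and 34.0 (-1.46 ± 0.21), and Sall1 differed by -2.20. The other members of that interval differed by -0.97, 0.18, 0.47 and 0.97, so the interval was mixed. Near Klf2, a Krüppel-like factor gene, the member of chr8:74820025-74833350 had 5863 and 1857 (-1.75 ± 0.20), whereas Klf2 was higher in VZ/SVZ by 2.25.

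Both directions occurred near other factors. Members near Lmx1b and Nfib had bounds of -1.88 and -1.90, and a member near Nr2f1 differed by -1.20. The examples that follow were higher in VZ/SVZ. The member of chr8:123649699-123649970, near the forkhead genes Foxc2 and Foxl1, had 12.2 and 59.9 (2.20 ± 0.25), and Foxl1 was at least 2.67 higher. The member of chr17:86092322-86093123, 9.36 kb from Six2, had 442 and 1275 (1.43 ± 0.20). The Six2 probe nearest to it was at least 1.54 higher, and another Six2 probe at least 2.99. The member of chr3:30099759-30133959 near Mecom had 110 and 390 (1.73 ± 0.20). The nearest Mecom probe differed by -0.15, while another Mecom probe differed by 0.98. The member of chr2:172343878-172344212 had 37.0 and 137 (1.80 ± 0.21), and Tfap2c, a transcription factor gene 38.7 kb away, was at least 3.67 higher. The member near Sox4, 65.7 kb away, had 13.2 and 59.3 (2.07 ± 0.25), while Sox4, a progenitor and neuroblast factor, differed by 0.19. Near Otp, which did not pass the background mark on any array, the plus-strand member of chr13:95613081-95640256 had 21.5 and 84.0 (1.87 ± 0.22).

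The complexes that handle noncoding RNA had list medians below 0, where the median of all genes was -0.016. Of 13 genes of the nuclear exosome, which degrades unstable transcripts, none was 2-fold higher in VZ/SVZ, while Exosc8 was in the neurosphere (-1.07), with a median difference of -0.47. Of 12 genes of the Integrator complex, which ends noncoding transcription, the counts were 0 for VZ/SVZ and 2 for the neurosphere, with a median of -0.48. Of 10 genes of polycomb repressive complex 2, a partner of several long noncoding RNAs, they were 1 (Phf19, 1.08) and 1 (Ezh2, the catalytic subunit, -1.08), with a median of -0.55. Of 11 genes for H3K4 and H3K36 methylation they were 1 and 1, with a median of -0.20. Over all 18674 genes measured 3227 were called for VZ/SVZ and 2344 for the neurosphere.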

How the data were processed

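RNA labelled with Cy3 was hybridised to 2 Agilent arrays (mm9 design), 1 per group, so n is 1 and no p-value is given. Per the file headers the intensity values come from Agilent Feature Extraction 11.5.1.1, and the submitters' processing notes name version 9.1. The deposited intensity columns used were the background-subtracted processed signal and, for 1 alternative, the mean and background signals. The authors' deposited value table, another alternative, holds linear intensity with medians over probes of 13.04 (neurosphere) and 18.66 (VZ/SVZ), neither centred nor scaled between arrays, as its values set beside the scanner signal show.

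Spots marked as outliers were left out, replicate spots averaged on the log2 scale, and each array's 75th percentile over probes subtracted. Agilent's well-above-background mark gave detection. A member dim on 1 array has a bound, against the higher of its own level and the lowest level well above background there. Named members are the 10 largest differences (1 per interval) and 6 largest bounds per direction, the intervals with the most probes called alike or opposite, and the members nearest listed transcription factor genes, none on chromosomes 18, X or Y. Gene names came from RefSeq (GRCm38.p6), matched by accession for 32994 of 52145 gene probes, by symbol for 10223 and by synonym for 520. Members and lists were chosen with earlier results of these data known. Python 3.11.15, pandas 2.3.3, R 4.3.3 and limma 3.58.1 were used. On simulated data all 100 probes changed 4-fold, drawn from those well above background on both arrays, were recovered. The simulated noise was below the scanner error, so this checked the calculation and not the accuracy of the calls. Alternatives were normexp (offset 50), quantile and median scaling, other detection marks and windows. A result at 1 locus is not reported here.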

Additional observations from a re-analysis of the deposited data

Results flagged for a closer look

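Of the 91 probes of the intergenic class that the files do not place in mm9, and which entered none of the comparisons, 65 passed the well-above-background mark in the neurosphere and 74 in VZ/SVZ. They are given here because they carry signal outside the main measurement, where 0 and 1 of 308 negative control spots passed the same mark. Of 76 measured on at least 1 array, 16 were called for VZ/SVZ at 2-fold and 6 for the neurosphere.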

How the results depend on the processing

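No paired analysis was possible because each group had 1 array, and for the same reason no array could be left out. The normexp setting, a background correction with an offset of 50, changed most. That offset exceeds the median signals of 13.04 (neurosphere) and 18.66 (VZ/SVZ). It draws the differences of dim probes toward 0 by construction, so a fall in calls among dim members is built into the setting. With normexp, 123 and 61 members were called for VZ/SVZ and the neurosphere (691 and 240 before), 5 and 3 of those near transcription factor genes (19 and 10), 2 runs (14) and a median of 0.030. With normexp the share of members called for VZ/SVZ, 4.04%, no longer exceeded the 4.65% of the other probes. Quantile normalization gave a median of -0.017, 375 members and 16 of those near transcription factor genes for the neurosphere, and 8 runs. Agilent's positive-and-significant mark in place of the well-above-background mark raised detection to 83.7% and 87.4%, calls to 1039 and 420, and intervals with both strands bright in the neurosphere to 630. Members bright on both arrays gave 453 calls for VZ/SVZ, and gaps under 20 kb gave 9 runs. The causes were not tested beyond what the settings themselves change, such as the normexp offset or fewer members tested. In these comparisons 44 of 61 alternative values stayed close to the main value, among them those from the authors' table. Of 80 named members past 2-fold, none changed sign; 44 stayed past it with normexp and 78 with quantile normalization. The runs, the exclusion of shared sequences and the protein-coding neighbours were alternatives chosen after seeing the data. Signal near background limits the precision of the dim members. Beyond the start windows, hairpins and array probes named above, transcripts of like sequence elsewhere in the genome were not searched for. A member's signal is therefore not shown to come from its own interval alone.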
